A study of Zea mays with 28 samples.

Results

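The regions described here are the stretches near the ends of the maize chromosomes where peaks of ZmDDM1A, ZmDDM1B and ZmAGO4 were all called in wild-type embryos. Peaks of the 6 wild-type (WT) lists, 2 libraries for each of 3 antibodies, were joined into 1 region wherever they shared at least 1 bp. A joined region was a member when it held a peak of all 6 lists and its midpoint lay in the first or last 20% of its chromosome, with the largest peak end in any of the 10 lists taken as the chromosome length. This gave 13376 members among 122155 joined regions. In the genome as a whole 24115 joined regions, 19.7%, held a peak of all 6 lists, and the 10739 of them that lay further inside, called interior regions below, are the comparison used throughout. The members were chosen by the presence of WT peaks and by their position, so both of these are descriptions and carry no test.

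The embryos were of the maize inbred line W22 and were taken 18 days after pollination. The 5 groups used are ChIP with antibodies against ZmDDM1A, ZmDDM1B and ZmAGO4 in WT embryos, ZmDDM1A ChIP in zmddm1a embryos (aaBB in the names of its peaks) and ZmDDM1B ChIP in zmddm1b embryos (AAbb), each with 2 libraries. The antibodies were made in the laboratory of the study. The labels do not say whether the libraries of a group came from separate plants, so a test here sets a difference against spread that may be technical. The other 18 libraries of the series (input, IgG, H3K9me2 and mRNA-seq) were not analysed here, and neither were genes or sequence, so each region is given by its position in B73 RefGen_v4, the assembly of another inbred line.

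DDM1 is a chromatin remodeller of the SNF2 family. In Arabidopsis it moves nucleosomes and is needed to keep transposons methylated and silent. Maize has a pair of genes for it, and ZmDDM1A and ZmDDM1B are their products. AGO4 is an Argonaute protein that carries small RNAs to matching transcripts, from where DNA methyltransferases are recruited in RNA-directed DNA methylation. Maize chromosomes are richest in genes towards their ends and richest in older repeats around the centromeres, and in maize RNA-directed DNA methylation is known for acting next to genes, at the borders between active chromatin and silent transposons.

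Members were 1.87 times as dense as interior regions, with 15.9 per Mb against 8.50 per Mb. The outer 40% of the chromosomes held 55.5% of all regions with 6 lists (95% interval 54.8 to 56.1%, exact Clopper-Pearson, counting error only). Of the joined regions with a peak of 1 list 50.6% were distal, and of those with 5 lists 52.3%. Peaks of any kind thus lay more often towards the ends, and the regions shared by all lists somewhat more so. The distal share exceeded 40% on 10 of 10 chromosomes and ran from 45.3% on chromosome 4 to 62.1% on chromosome 2.

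Apart from rises between some neighbouring bins, the density fell inward, and it had no step at the 20% boundary. In the outermost 2% of the chromosomes there were 18.5 all-list regions per Mb, and in the next 2% there were 20.4 per Mb, the highest value. Just inside the boundary there were 11.4 per Mb and just outside it 11.6 per Mb. In the bin next to the middle of the chromosome there were 6.27 per Mb. The share of joined regions that held all 6 lists changed less than the density, from 20.5% in the outermost 2% to 16.7% in the middle, so most of the gradient was one of peaks of any kind.

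**Figure D1:**
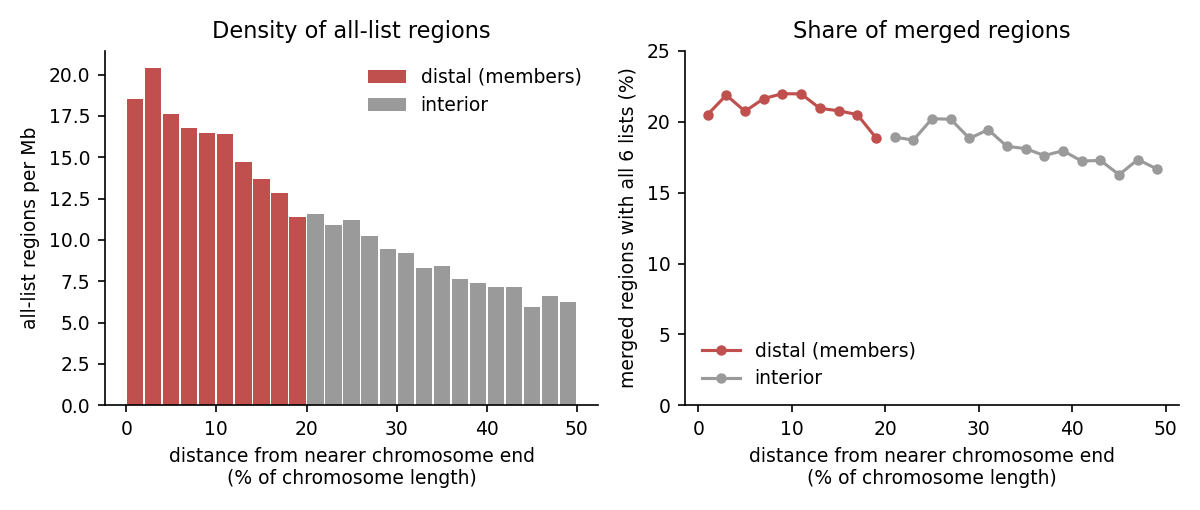
Left, regions with a peak of all 6 WT lists per Mb in bins of 2% of chromosome length, by distance from the nearer end. Right, the percentage of all joined regions in the same bins that held all 6 lists. The density is highest in the bin from 2 to 4%, at 20.4 per Mb, and has no step at 20%. It is lowest at 5.97 per Mb in the bin from 44 to 46%. The share stays between 20.5 and 22.0% out to 18% from the end and is lowest, at 16.3%, in the bin from 44 to 46%.

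The ends of a chromosome were often unequal. On chromosome 6 the end with the low coordinates held 203 members and the other end 788, or 5.83 against 22.6 per Mb. Chromosome 7 held 319 and 827 members at its ends, and chromosome 10 held 250 and 599. The end with the high coordinates was the richer one on 8 of 10 chromosomes. Chromosomes 1 (1166 and 1010 members) and 2 (960 and 739) had the reverse order.

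Members were also unevenly spaced within an end. The median gap between neighbouring members was 27.1 kb, with quartiles of 5.05 and 79.8 kb, and 24.9% of gaps were shorter than 5 kb. For interior regions the median gap was 57.1 kb and 18.1% were shorter than 5 kb. The longest stretch without a member was 3.71 Mb at the low end of chromosome 6, chr6:10955920-14669969. Of 828 full windows of 1 Mb in the distal zone 8 held no member. The densest held 45, at chr5:219000001-220000000 and at chr6:168000001-169000000.

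The members took up a larger part of the DDM1 lists than of the ZmAGO4 lists. They held 36.4 and 37.0% of the ZmDDM1A peaks, 30.6 and 31.9% of the ZmDDM1B peaks and 14.35 and 14.7% of the ZmAGO4 peaks. ZmAGO4 had 99625 and 98086 peaks to place, against 45011 to 56570 in the DDM1 lists, while the numbers inside members were alike, from 14294 to 17302 per library. More than 1 peak of the same protein was not rare, and 23.7% of members held at least 2 ZmDDM1A peaks of 1 library, 26.2% at least 2 ZmDDM1B peaks and 10.8% at least 2 ZmAGO4 peaks.

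A typical member was a wide ZmAGO4 peak with a narrower ZmDDM1A peak and a narrower ZmDDM1B peak inside it. Members were 283 to 17320 bp wide with a median of 1572.5 bp, and together they covered 26.05 Mb. In 65.0% of them (8697) each of the 6 lists had exactly 1 peak. ZmAGO4 peaks covered a median of 96.7% of a member's width, ZmDDM1A peaks 44.8% and ZmDDM1B peaks 45.7%. The ZmAGO4 peaks alone set both edges in 38.2% of members, ZmDDM1A peaks in 1.69% and ZmDDM1B peaks in 3.32%. Since ZmAGO4 peaks set most of the width, the width of a member is largely a ZmAGO4 measure. Interior regions were built alike, and 65.2% of them had 1 peak of each list. The median cover there was 97.85% for ZmAGO4, 40.25% for ZmDDM1A and 42.5% for ZmDDM1B. ZmAGO4 peaks alone set both edges in 43.6% of interior regions.

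The widest member, chr3:6374732-6392051, spanned 17320 bp with 16 peaks. The next, chr5:219136894-219151722, spanned 14829 bp and held 45 peaks, the most of any member. The narrowest, chr5:193531973-193532255, was 283 bp wide with 1 peak of each list. In this narrow member the summits of the 6 libraries lay within 35 bp of each other, while in the widest one they spread over 8772 bp.

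Fold enrichment, the authors' ratio of ChIP to background at a summit, differed between the proteins in level and in shape. For each library the strongest peak in a region was taken. The median fold in members was 4.65 and 4.56 in the ZmDDM1A libraries, 5.54 and 5.46 in the ZmDDM1B libraries and 8.97 and 9.18 in the ZmAGO4 libraries. Lists were made separately, so these levels compare antibodies and depths as well as proteins. ZmAGO4 folds had the widest spread, with quartiles of 4.58 and 12.8 in replicate 1, where ZmDDM1A had 3.71 and 5.86 and ZmDDM1B 4.30 and 7.03. In the plot of fold distributions ZmAGO4 shows a long shoulder of low values under its main mode, while each DDM1 paralogue has a single mode.

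**Figure D2:**
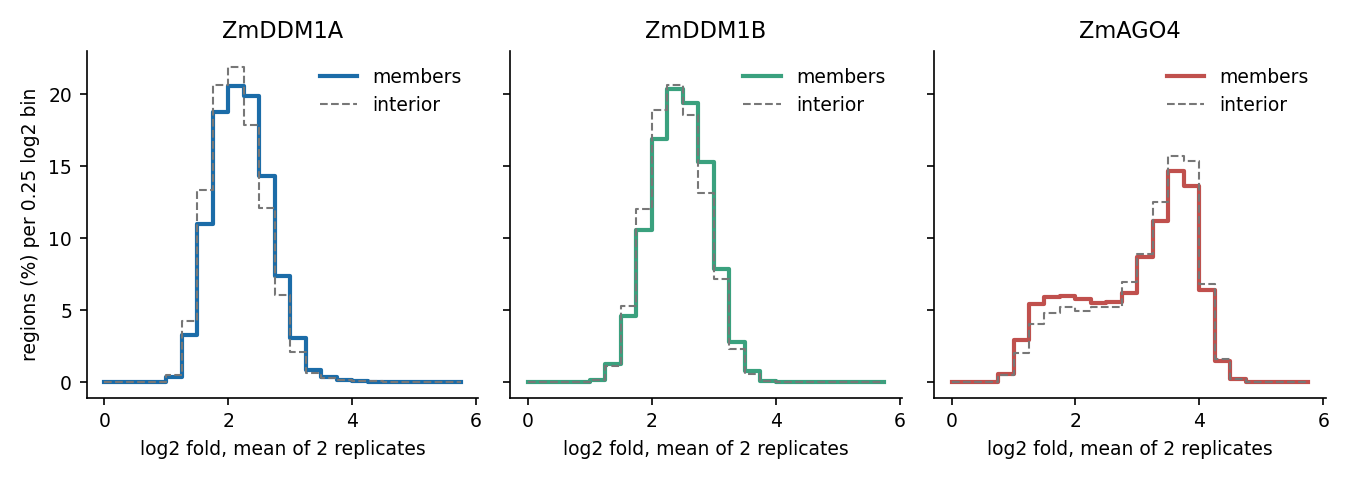
Distribution of the fold of members (solid) and interior regions (dashed) for each WT antibody, as the percentage of regions in bins of 0.25 on the log2 scale. Each region's value is the mean log2 fold of 2 replicates. The DDM1 curves of members lie slightly to the right of the interior ones, and members exceed interior regions in the low shoulder of ZmAGO4.

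By the rule each member had a called peak in each library, so folds above background were built into the selection. A fold of at least 2 in all 6 libraries was found in 97.2% of members, a fold of at least 4 in 31.95% (4274) and a fold of at least 8 in 28 members. These shares describe the members only and were not set beside those of interior regions. The background that the caller had set at members' summits, recovered from the deposited fold and p-value, had medians of 2.90 to 3.74 times its floor in the 6 libraries, the floor being the repeated minimum among a list's backgrounds. At peaks outside all-list regions the medians were 1.90 to 2.80 times the floor. Interior regions had medians of 2.90 to 3.74 times the floor, so the higher background was shared by all-list regions and was not particular to members. The value of an all-list region is that of its strongest peak, whereas the other peaks were taken singly.

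Some members were strong for all 3 proteins. The member with the highest smallest fold was chr9:128999784-129001401. Its folds were 10.2 and 13.2 for ZmDDM1A, 9.68 and 11.7 for ZmDDM1B and 17.1 and 13.5 for ZmAGO4. It was also met by a ZmDDM1A peak in both zmddm1a libraries, with folds of 5.44 and 3.48. In second place was chr6:157513713-157515837, with 9.60 and 11.0 for ZmDDM1A, 9.68 and 13.6 for ZmDDM1B and 13.2 and 14.8 for ZmAGO4. It was met by a ZmDDM1B peak in both zmddm1b libraries, with folds of 10.53 and 3.335. Next was chr10:143309815-143311239, with 10.9 and 9.08, 12.3 and 9.07, and 9.13 and 11.9, and it was met by no mutant peak. The smallest fold of the 10 highest members ran from 8.49 to 9.68, and they lay on chromosomes 1, 6, 7, 8, 9 and 10.

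At the other extreme 2 members owed their low value to a single ZmAGO4 library. At chr1:270327445-270329605 the ZmAGO4 fold was 1.20 in replicate 1 and 3.37 in replicate 2, where the backgrounds were 41.8 and 3.45 times the floor. At chr9:148950928-148954600 it was 17.95 in replicate 1 and 1.34 in replicate 2, with backgrounds of 2.38 and 34.4 times the floor. The replicates disagreed at both places, and in each the library with the low fold had the high background. The DDM1 folds there, 3.51 to 6.50, were like those of other members. A background above 10 times the floor in at least 1 library was found in 72 members, 0.538%, and in 64 interior regions, 0.596%.

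The order of members by fold was shared between the paralogues and not with ZmAGO4. Across members, which are not independent replicates, Spearman's rho between replicates was 0.913 for ZmAGO4, 0.582 for ZmDDM1A and 0.501 for ZmDDM1B. Between a ZmDDM1A and a ZmDDM1B library it was 0.418 to 0.444, below the values between replicates of either paralogue. Between a DDM1 and a ZmAGO4 library it was -0.0968 to 0.000494. Interior regions had a like order, with rho of 0.396 to 0.430 between the paralogues and -0.0933 to 0.014 between a DDM1 and a ZmAGO4 library. Of the 1337 members with the highest ZmDDM1A folds 446 (33.4%) were also among the 1337 with the highest ZmDDM1B folds, and 95 (7.11%) among the 1337 with the highest ZmAGO4 folds. The ZmDDM1B and ZmAGO4 selections shared 113 members (8.45%), and all 3 shared 35 (2.62%). Each selection is 10% of the members, so unrelated rankings would share 10% of it in pairs and 1% among all 3. The 1% is no yardstick here, since it takes the paralogue rankings as unrelated and their selections shared 33.4%. A ZmAGO4 ranking unrelated to those of the paralogues would place about 10% of their 446 shared members in its selection. The ZmAGO4 selection held 35 of these 446. Its pairs with ZmDDM1A and ZmDDM1B, at 7.11 and 8.45%, also lay below 10%.

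Members differed slightly from interior regions, and in opposite directions for the DDM1 paralogues and ZmAGO4. The median folds of interior regions were 4.42 and 4.36 for ZmDDM1A, 5.38 and 5.21 for ZmDDM1B, and 9.65 and 9.90 for ZmAGO4. As a log2 ratio of members to interior regions this was 0.068 ± 0.0071 for ZmDDM1A, 0.056 ± 0.016 for ZmDDM1B and -0.107 ± 0.0037 for ZmAGO4 (SD, n = 2 libraries each). The difference was thus larger than the spread between replicates for each antibody, and was small in size. The members' median was the higher one on 10, 9, 9 and 9 of 10 chromosomes in the DDM1 libraries, and on 2 and 0 of 10 in the ZmAGO4 libraries.

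Over the 6 libraries together the log2 ratio averaged 0.0056, and the exact two-sided sign-flip test over libraries gave p = 0.844, where the smallest p it allows is 0.03125. The gap of 0.169 on the log2 scale between the 4 DDM1 libraries and the 2 ZmAGO4 libraries gave p = 0.0667 by exact permutation, the smallest of the 15 assignments; this test was chosen after the values were seen. Recovered pileups, the fragments stacked at a summit, moved in the same directions (log2 ratio of means 0.028 ± 0.0010, 0.047 ± 0.010 and -0.074 ± 0.00091 for ZmDDM1A, ZmDDM1B and ZmAGO4, n = 2 each). The log2 ratio of background medians was -0.066 and -0.022 in the ZmDDM1A libraries, against fold ratios of 0.073 and 0.063, so a lower background went with the higher ZmDDM1A fold of members. In the ZmDDM1B and ZmAGO4 libraries the background ratio was at most 0.00075. The ZmAGO4 difference was -0.0267 among regions in the middle of the width range (1245 to 2121 bp). That limit also restricts ZmAGO4 fold, which rose with region width (Spearman's rho 0.642 across members). When peaks with a fold under 4 were left out of all lists, which by construction narrows differences in fold, the ratios were 0.0183, 0.00635 and -0.0273. With the weakest instead of the strongest peak of a list in each region they were 0.0547, 0.0279 and -0.127.

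**Figure D3:**
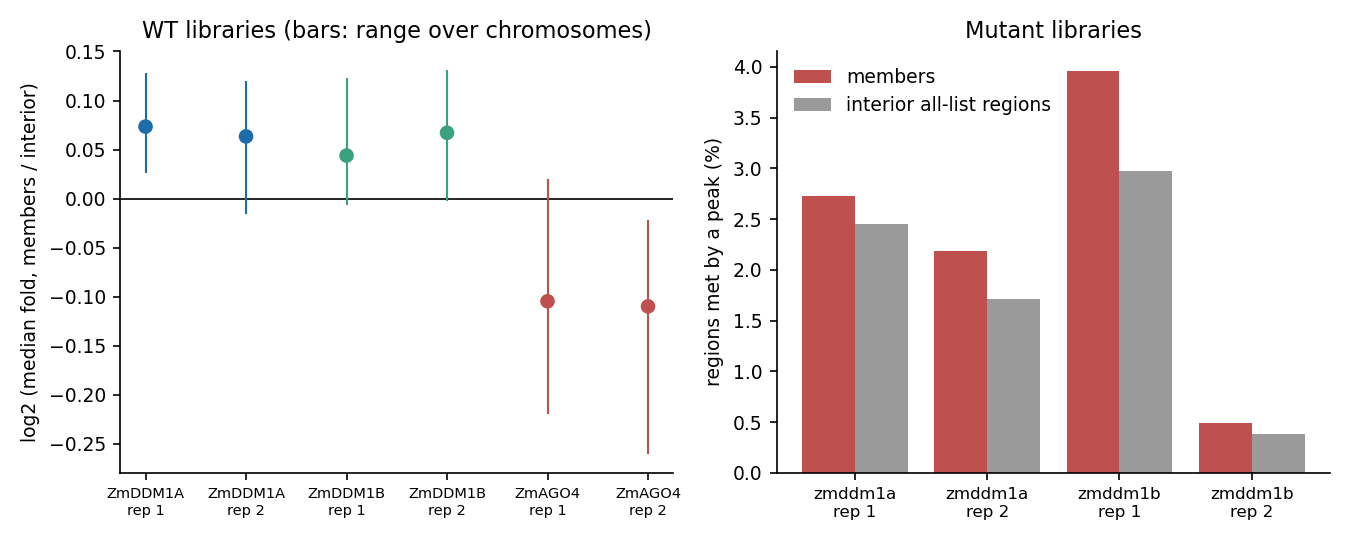
Left, log2 ratio of the median fold in members to that in interior regions for each WT library, with vertical bars for the range over 10 chromosomes. Right, percentage of members and of interior regions met by a peak of each mutant library. The 4 DDM1 libraries lie above 0 and the 2 ZmAGO4 libraries below it, and members are met more often in 4 of 4 mutant libraries.

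Peak widths of members and interior regions did not differ consistently. The mean log2 ratio of median widths over the 6 libraries was -0.0082 (exact two-sided sign-flip test, p = 0.688). By antibody it was 0.041 ± 0.0079 for ZmDDM1A, -0.00013 ± 0.012 for ZmDDM1B and -0.065 ± 0.0065 for ZmAGO4 (SD, n = 2 each). ZmAGO4 peaks were thus narrower in members, with medians of 1327 and 1301 bp against 1393 and 1357 bp.

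The lower ZmAGO4 median of members came with a larger share of regions with weak ZmAGO4. A mean ZmAGO4 fold below 4, a limit chosen after the values were seen, was found in 2776 members (20.75%) and in 1785 interior regions (16.6%). The members' share was the higher one on 9 of 10 chromosomes. The median ZmAGO4 fold of the regions at or above the limit was 10.8 in members and 11.05 in interior regions. Members with weak ZmAGO4 had DDM1 folds as high as the others, with medians of 4.86 against 4.55 for ZmDDM1A and 5.54 against 5.46 for ZmDDM1B.

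The summits of ZmDDM1A and ZmDDM1B nearly coincided, whereas those of ZmAGO4 stood apart from them. The median distance between the nearest ZmDDM1A and ZmDDM1B summits of a member was 45 bp in replicate 1 and 46 bp in replicate 2. It was little more than the distance between replicates of the same antibody, which was 35 bp for ZmDDM1A, 28 bp for ZmDDM1B and 25 bp for ZmAGO4. From ZmDDM1A to ZmAGO4 it was 219 and 226 bp, and from ZmDDM1B to ZmAGO4 246 and 251 bp. Within 200 bp of each other lay 91.9 and 92.0% of the paralogues' summits, and 42.3 to 47.1% of the pairs of a DDM1 and a ZmAGO4 summit. Among peaks with a fold of at least 4 the distances to ZmAGO4 were larger, at 369.2 and 359.5 bp.

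Interior regions had the same arrangement with slightly larger distances, at 49 and 50 bp between the paralogues, 241 and 246 bp from ZmDDM1A to ZmAGO4, and 267 and 269 bp from ZmDDM1B to ZmAGO4. Each of these distances was shorter in members, in both replicates. Between strongest summits, averaged over replicates, this did not hold throughout for ZmDDM1A to ZmAGO4. At a mean ZmAGO4 fold of at least 4 the median was 371.0 bp in members and 369.25 bp in interior regions. Below 4 it was 72.25 bp in members and 82.0 bp in interior regions. The part of ZmAGO4 fold in the shorter distances was not tested.

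Most DDM1 summits, 92.1 to 95.5%, lay inside a ZmAGO4 peak, and they were spread along it. On a scale from 0 at the centre of that peak to 1 at its edge their median position was 0.486 to 0.514, and 48.6 to 51.5% lay nearer to the centre than to the edge, close to the even split that an even placing along the peak would give. ZmAGO4's own summits had a median of 0.263, with 81.6% nearer to the centre. In interior regions 90.8 to 94.4% of DDM1 summits lay inside a ZmAGO4 peak, at a median position of 0.475 to 0.502. By the rule all these regions held ZmAGO4 peaks, which covered a median of 96.7% of a member's width and 97.85% of an interior region's. A high share of summits inside a ZmAGO4 peak was thus largely built into the selection. In the 8697 members with 1 peak of each list, both DDM1 summits were more than 100 bp from the ZmAGO4 summit in 60.3 and 60.6% of cases. Where both of these lay on 1 side of it, that was the side of higher coordinates in 49.4 and 49.7% of cases; the direction of genes was not used here.

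The distance grew with the strength and width of ZmAGO4. When members were ranked into 5 equal groups by ZmAGO4 fold, a grouping chosen after the values were seen, the median fold of ZmAGO4 rose from 2.95 to 15.6 and its median peak width from 517 to 2340 bp. Over the same groups the median ZmDDM1A fold went from 4.85 to 4.39 and that of ZmDDM1B from 5.55 to 5.44, and the widths of their peaks stayed between 452.5 and 527.5 bp. By these medians the peaks of the 3 proteins were of about equal width in the lowest group, where the median member was 822.5 bp wide. In the highest group the DDM1 peaks were of about the same size and the ZmAGO4 peaks much wider. For these groups the distance was taken between the summits of each list's strongest peak and averaged over replicates, unlike the nearest summits above. Its median from ZmDDM1A to ZmAGO4 went from 72 bp in the lowest group to 550 bp in the highest. Between the paralogues it went from 55 to 84 bp. A wider peak leaves more room for distant summits, and the part of width in this was not tested.

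**Figure D4:**
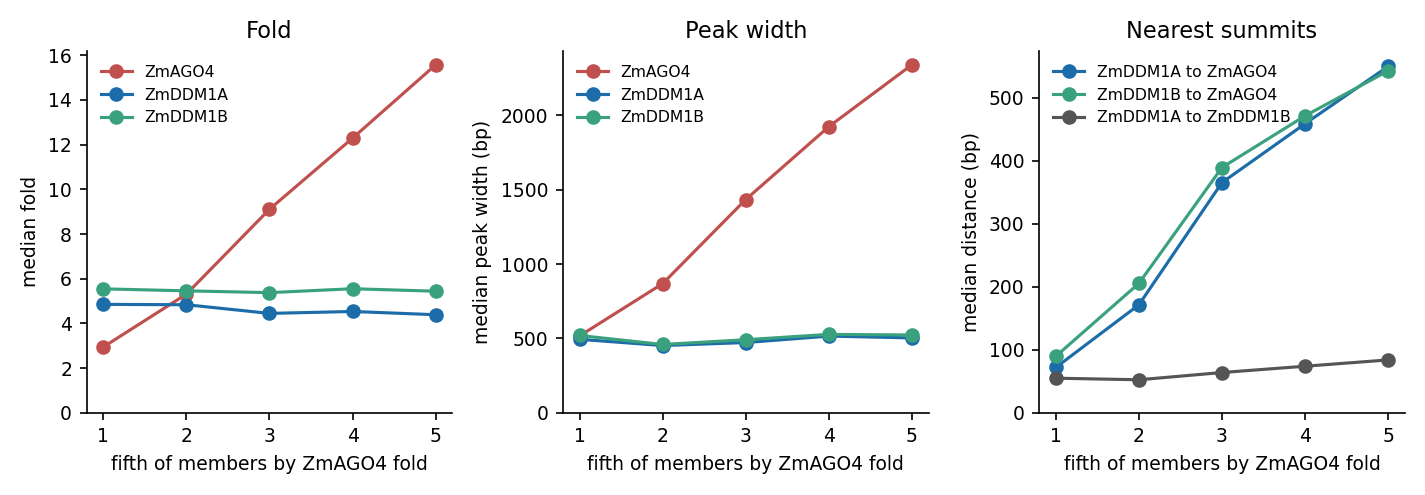
Members in 5 equal groups by ZmAGO4 fold, from lowest (1) to highest (5). Points are group medians of the fold of each antibody, of its peak width in bp and of the distance between summits in bp. The summits are those of each list's strongest peak in a member, although the panel is headed nearest summits. ZmAGO4 width rises from 517 to 2340 bp, DDM1 folds and widths stay nearly level, and the ZmDDM1A to ZmAGO4 distance rises from 72 to 550 bp.

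Few members were met by a peak of a DDM1 antibody in embryos that carry a mutation in its own target. The mutant libraries did not help to choose the members, apart from their part in setting chromosome lengths. A ZmDDM1A peak in at least 1 zmddm1a library met 508 members, 3.80% (95% exact interval 3.48 to 4.14%), where the figure for all joined regions was 1.06%. In both zmddm1a libraries a peak met 149 members, 1.11%, against 0.287% of all joined regions. A ZmDDM1B peak in at least 1 zmddm1b library met 548 members, 4.10% (3.77 to 4.45%), against 1.29% of all joined regions, and in both libraries 48 members, 0.359%, against 0.164%. Members are wider than most joined regions, whose median width was 273 bp with 1 list and 703 bp with 2, and a wide region is more easily met; interior regions, with a median of 1653 bp, are the closer comparison. In all, 997 members (7.45%) held a peak of any mutant list, against 6.03% of interior regions.

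The zmddm1b value rested on 1 library. Replicate 1 alone met 3.96% of members and replicate 2 alone 0.493%, with lists of 1870 and 766 peaks. The zmddm1a libraries met 2.73 and 2.18%, with 817 and 883 peaks. The mutant lists are short and 3 of the 4 hold scaled values, so their depth was not recovered here, and a missing peak shows that none was called, not that no protein was there.

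Members were met slightly more often than interior regions in 4 of 4 mutant libraries. The interior values were 2.45 and 1.71% in zmddm1a and 2.97 and 0.382% in zmddm1b. The mean log2 ratio was 0.32 ± 0.11 (SD, n = 4), and the exact two-sided sign-flip test gave p = 0.125, the smallest p that 4 libraries allow, so the difference could not pass 0.05 here. With regions matched in 5 groups by the WT fold of the same antibody the mean ratio was 0.152, and members were met more often in 3 of 4 libraries (exact sign-flip p = 0.25). It was 0.197 with a fold of at least 4, again with 3 of 4 libraries (exact sign-flip p = 0.25), and 0.203 with a −log10 q of at least 5, with 4 of 4.

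Members of higher WT fold were met more often. Among the members ranked into 5 equal groups by the smaller WT ZmDDM1A fold, the share met by zmddm1a was 0.635% in the lowest group and 11.3% in the highest. For zmddm1b and the smaller WT ZmDDM1B fold it went from 0.411% to 12.4%, and both shares rose at every step. Wider members were met more often too, with shares of 2.84% to 4.82% for zmddm1a and 2.13% to 6.73% for zmddm1b from the narrowest to the widest of 5 equal groups. The members met had median WT folds of 6.95 and 7.46 (ZmDDM1A) and 7.63 and 8.38 (ZmDDM1B), in library order, against 4.58, 4.59, 5.40 and 5.47 for the other members. The parts of fold and width were not separated here.

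**Figure D5:**
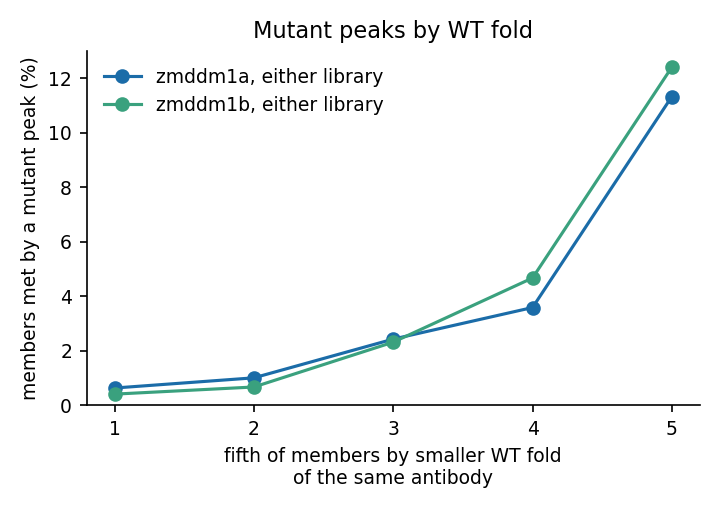
Percentage of members met by a peak in either library of zmddm1a or zmddm1b, for members in 5 equal groups by the smaller of 2 WT folds of the same antibody. Both curves rise at every step, from 0.635 to 11.3% for zmddm1a and from 0.411 to 12.4% for zmddm1b.

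Where a mutant peak was called it stood at the WT position and was usually weaker. The median distance between mutant and WT summits was 24 to 32 bp. Median mutant folds were 4.37 and 4.51 in zmddm1a and 4.03 and 4.12 in zmddm1b. The mutant fold exceeded the WT fold of the same replicate number in 38 of 365, 33 of 292, 21 of 530 and 4 of 66 members. The lists were scaled separately, so these folds are set side by side and not tested.

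A few members kept a ZmDDM1A fold in zmddm1a that was as high as in WT. At chr2:200785693-200787445 the WT ZmDDM1A folds were 37.3 and 33.8 and those in zmddm1a 37.5 and 36.6, while ZmDDM1B had 6.70 and 9.27 and ZmAGO4 11.5 and 12.0. At chr6:168948949-168953109 they were 37.3 and 42.9 in WT and 35.05 and 44.1 in zmddm1a. At chr2:12049925-12050787 they were 41.5 and 17.25 in WT and 33.3 and 32.96 in zmddm1a. The WT pileups there were 316 and 301, over backgrounds of 1.945 and 4.626 times the floor. These members were chosen for high mutant folds. Their ZmDDM1A folds were several times those of ZmDDM1B, in lists made separately. High ZmDDM1A folds were found at these places in embryos of both genotypes. The WT and zmddm1a ranges overlapped in each of these members.

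Among members with a ZmDDM1B peak in both zmddm1b libraries, the smaller mutant fold was highest at chr5:221648954-221652260. ZmDDM1B had folds of 13.6 and 23.5 there in WT and 11.9 and 13.0 in zmddm1b, so both mutant values lay below both WT values, and ZmDDM1A had 44.4 and 28.5 in WT and 3.73 and 3.72 in zmddm1a. This was also 1 of the 4 members (0.0299%) met in all 4 mutant libraries. Among interior regions 1 (0.0093%) was so met, and among all joined regions 6 (0.0049%). The other members so met were chr2:39687727-39689540, chr2:216754636-216755453 and chr5:193787457-193788259, which were 1814, 818 and 803 bp wide. At chr5:193787457-193788259 the folds were 7.06 and 7.96 for ZmDDM1A in WT, 5.98 and 9.85 in zmddm1a, 6.08 and 5.19 for ZmDDM1B in WT and 4.06 and 5.84 in zmddm1b, so WT and mutant overlapped for both antibodies.

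Members of very high background were met more often. Of the 72 members with a background above 10 times the floor in some WT library, 17 (23.6%) were met by a mutant peak, against 7.37% of the other members; the limit was chosen after the values were seen. None of the 4 members met in all mutant libraries was among the 72.

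The boundaries of the selection were gradual. Among distal joined regions 3473 held 5 lists, and the missing list was most often ZmDDM1A replicate 2 (850 regions) or replicate 1 (783), and least often ZmAGO4 replicate 1 (278). Just inside the 20% boundary lay chr10:120792853-120795685, chr6:139238381-139238780 and chr9:31929950-31931125, with smallest folds of 2.69, 2.78 and 3.14. Just outside it lay chr1:61414029-61416776, chr5:179112985-179113548 and chr2:195514839-195519049, with smallest folds of 3.72, 3.83 and 3.13. The outermost member of all, chr3:235588363-235590416, ended at the last base covered by any list on its chromosome, and its folds were 3.53 and 3.80, 4.21 and 4.44, and 13.3 and 12.8 for ZmDDM1A, ZmDDM1B and ZmAGO4.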

How the data were processed

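Peak positions, folds and significance were taken from 10 deposited lists, 1 per library. The submitters' processing notes name MACS2 2.1.2 for the series, beside Bowtie2, Trim Galore, Picard and tools for RNA, and the build B73 RefGen_v4; its settings were not given in the sources used here. The fold is a ratio deposited by the authors for each summit, and p-values and q-values were deposited as −log10; the smallest −log10 q was 2.00 to 2.12 in the lists. Folds were used to describe and rank peaks within a list.

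Peaks were joined at 1 bp of overlap with Python 3.11.15, pandas 2.3.3, numpy 2.4.6 and scipy 1.17.1. Pileup and background were recovered from fold and p at each summit; a whole-number pileup matched within 0.001 at about 100% of summits in the 6 WT lists and zmddm1a replicate 2, and at 0.245, 8.66 and 0.914% in the other 3. The recovered relative depth was 12.7 to 31.4 reads per kb in WT, and depth limits which weak peaks could be called. Scripts were tested on simulated data. Classes of regions were compared within each library and tested over libraries by exact sign flips; intervals are exact Clopper-Pearson intervals, take neighbouring regions as independent and so cover counting error alone. Printed coordinates count from 1.

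The members, lists and the rule for naming regions were chosen with earlier results of these data known. The rule took the 10 members with the highest smallest fold, the 3 with the lowest, the widest and narrowest, 5 per mutant with the highest smaller mutant fold in both libraries, those met in all 4 mutant lists, the outermost per chromosome and those next to the 20% boundary; of these the text gives a part. Groupings of members by fold, width or background and the limits on summit distance were set after the values were seen. Alternatives changed the q, fold, overlap, boundary and libraries used. Sequence and genes were not analysed here because no genome of the lists' build was at hand.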

Additional observations from a re-analysis of the deposited data

Results flagged for a closer look

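The difference in fold between members and interior regions had opposite signs for the DDM1 antibodies and ZmAGO4. The log2 ratio of members to interior regions was 0.062 on average over the 4 DDM1 libraries and -0.107 over the 2 ZmAGO4 libraries, so that 4 of 4 DDM1 libraries lay above 0 and 2 of 2 ZmAGO4 libraries below it. The difference was 0.169 on the log2 scale (exact permutation of libraries, p = 0.0667, the smallest of 15 assignments). This test was chosen after the values were seen. Among regions in the middle of the width range the ZmAGO4 ratio was -0.0267. Region width rose with ZmAGO4 fold (Spearman's rho 0.642 across members), so this limit also restricts the compared fold. The part of region width was not tested. The ZmAGO4 libraries had the larger recovered depth (28.5 and 31.4 against 12.7 to 17.9 reads per kb in the DDM1 libraries), and its part in the difference was not tested. Groups of 2 libraries are too small to look for single outlying libraries.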

How the results depend on the processing

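Most tests set classes of regions against each other within a library. For the gap of 0.169 between DDM1 and ZmAGO4 libraries the antibody labels were also permuted within each replicate number as a block, which gave p = 0.111, the smallest of 9 assignments (exact permutation); this was chosen after seeing the data. Deviations of libraries with the same replicate number correlated by 0.0088 to 0.017 across members. The folds thus showed no pairing by replicate number, which cannot tell whether such libraries shared embryos or a batch. Folds of each antibody are given as log2 ratios of members to interior regions, in the order ZmDDM1A, ZmDDM1B and ZmAGO4, and summit distances in the order of the paralogues, ZmDDM1A to ZmAGO4 and ZmDDM1B to ZmAGO4. The direction of the fold ratio of each antibody held under all the alternatives run. The means of fold and width over the 6 libraries lay near 0 and changed sign under several alternatives, with p above 0.05 throughout.

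With −log10 q of at least 5 the ZmAGO4 ratio was -0.0933, the shares met 2.93% (zmddm1a) and 3.05% (zmddm1b) and the distances 43, 237.5 and 256 bp. With a fold of at least 4 there were 4270 members, 57.6% of all-list regions were distal, mean fold and width ratios were -0.00087 and 0.0049, antibody ratios 0.0183, 0.00635 and -0.0273, and distances 39, 369.2 and 359.5 bp. With summits within 500 bp there were 8473 members, 56.3% distal, a mean fold ratio of -0.0516, a ZmAGO4 ratio of -0.282 and distances of 41, 133.5 and 158.5 bp, the latter short by construction.

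With the outer 10% there were 7561 members, 31.35% of all-list regions, a mean fold ratio of -0.0103, a ZmAGO4 ratio of -0.140, 4.15% met by zmddm1a and distances of 44.5, 214.5 and 241 bp. With the outer 30% the distal share was 74.1%, the mean width ratio 0.0130, the ZmAGO4 ratio -0.0915 and the distances to ZmAGO4 228 and 253.5 bp. Joining peaks within 200 bp gave 44.5 bp between the paralogues. Without regions with a mutant peak the mean fold ratio was -0.00095, with 0.0596 for ZmDDM1A and -0.112 for ZmAGO4. Requiring both mutant libraries gave 1.11% and 0.359%.

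With −log10 q in place of fold the mean ratio was -0.00177 and those of the antibodies 0.106, 0.119 and -0.230. With the smallest fold they were -0.0146, and 0.0547, 0.0279 and -0.127. In the middle of the width range, a limit that also restricts ZmAGO4 fold, ZmDDM1A had 0.0446 and ZmAGO4 -0.0267. Mean width gave a width ratio of 0.0175, and the strongest summits lay 55.5, 274 and 301.5 bp apart. With a ZmAGO4 fold of at least 4, an alternative chosen after seeing the data like the matching by WT fold, ZmAGO4 had -0.0318; that limit cuts the compared fold itself, so the difference narrows by construction.

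Leaving out 1 library at a time gave 13684 to 14228 members, distal shares of 55.1 to 55.7%, mean fold ratios of -0.00802 to 0.0286, width ratios of -0.0184 to 0.00141, antibody ratios of 0.0661 to 0.0761, 0.0491 to 0.0670 and -0.132 to -0.106, distances of 45 to 47, 210 to 227 and 238 to 250 bp, mutant ratios of 0.292 to 0.378, and shares met of 2.18 to 3.80% and 0.493 to 4.10%. The lowest zmddm1b share was that without zmddm1b replicate 1. Depth limits the calling of weak peaks, and no intervals cover it.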
